A study of Mus musculus with 12 samples.

Results

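The BCL2 family decides whether the mitochondrial route of apoptosis is opened, and 10 of its genes were followed across the 4 genotype groups of an RNA sequencing study of mouse bone-marrow progenitors. The members were taken by symbol: the anti-apoptotic Bcl2, Bcl2l1, Mcl1 and Bcl2a1b, the effectors Bax and Bak1, and the BH3-only genes Bcl2l11, Bid, Bbc3 and Pmaip1. They are 10 of the 39017 genes in the count table. The cells were LSK cells (Lin- Sca1+ cKit+), a marrow fraction of blood stem cells and their multipotent progeny, sorted from C57BL/6J; Sv/129 mice, with 3 libraries in each group. The group NICD_TCFKO carried R26 N1IC lox/+ with Tcf7 lox/lox and Mx1Cre, NOTCHWT_TCFKO carried Tcf7 lox/lox with Mx1Cre, NICD_TCFWT carried R26 N1IC lox/+ with Mx1Cre, and NOTCHWT_TCFWT was wild type. N1IC is the intracellular domain of Notch1, a constantly active form, and Tcf7 encodes TCF-1, a transcription factor of early T cells. All groups, the wild type included, received poly(I:C) at 2 ug/g. Mx1Cre is driven by an interferon-responsive promoter that is not restricted to LSK cells, and the wild-type label does not name a Cre. Cells of both NICD groups were sorted on CD45.2+ eGFP+ as well, and the effect of this sort cannot be told apart from that of N1IC.

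Anti-apoptotic members bind and hold the effectors BAX and BAK and the BH3-only proteins. BH3-only proteins respond to stress or to loss of growth factor, and once they outweigh their partners BAX and BAK perforate the outer mitochondrial membrane and release cytochrome c, which starts the caspases. In the haematopoietic system MCL-1 is needed for the survival of stem cells, BCL-2 supports lymphoid cells downstream of the interleukin-7 receptor, and BIM, the product of Bcl2l11, removes blood cells deprived of cytokine.

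Tcf7 and Notch1, the genes altered by design, went against some labels. Tcf7, deleted by label in NICD_TCFKO, stood at 297, 896 and 615 CPM (the usual counts per unit of library size, with TMM-scaled libraries) in those libraries. It averaged 1.28 ± 1.31 CPM in NOTCHWT_TCFKO, 5.5 ± 1.11 CPM in NICD_TCFWT and 14.8 ± 4.54 CPM in NOTCHWT_TCFWT libraries (SD, n = 3 each). Notch1 averaged 774 ± 160 CPM in NICD_TCFKO, 149 ± 46.7 CPM in NOTCHWT_TCFKO, 180 ± 19.9 CPM in NICD_TCFWT and 571 ± 44.4 CPM in NOTCHWT_TCFWT libraries (SD, n = 3 each). The group names are therefore used as labels, and each direction is between sets of libraries that carry them. The sample titles hold the word CTRL for NICD_TCFWT and Tg for both TCFKO groups, which the labels do not explain, and whether group labels were exchanged was not tested. In 1 library, NOTCHWT_TCFKO 1, both Xist (2160 CPM) and Y-linked genes (154 CPM in sum) were present. The sexes were spread unevenly over the groups, and all 3 NOTCHWT_TCFWT libraries were high in Xist with at most 0.0865 CPM of Y-linked genes. All LSK markers of a list of 7 averaged at least 1 CPM in every group, with sums of 1380 to 1940 CPM in NICD_TCFKO, 2050 to 3130 CPM in NOTCHWT_TCFKO, 2520 to 2950 CPM in NICD_TCFWT and 1770 to 2070 CPM in NOTCHWT_TCFWT libraries. Kit and Cd34 made up most of these sums. Ly6a, the gene of Sca1, went the other way. It averaged 102 CPM in NICD_TCFKO, 37.5 CPM in NOTCHWT_TCFKO, 73.1 CPM in NICD_TCFWT and 123 CPM in NOTCHWT_TCFWT libraries. Totals ran between 30453271 and 43790674 counts per library, so 3 counts in the shallowest library are 0.0985 CPM. The labels do not say whether replicates came from separate mice. In each group other than NOTCHWT_TCFWT some libraries were high in Y-linked genes and others only in Xist, so those did not share 1 mouse, while within a sex and in NOTCHWT_TCFWT the spread between samples may be technical.

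On a scale that allows genes to be compared (RPKM, the CPM divided by exon length in kilobases), Mcl1 was the most abundant member in every group, with means of 72.1 ± 6.26 RPKM in NICD_TCFKO, 90.1 ± 18.0 in NOTCHWT_TCFKO, 86.9 ± 10.3 in NICD_TCFWT and 84.3 ± 14.7 in NOTCHWT_TCFWT libraries (SD, n = 3 each). The effectors followed, Bak1 with group means between 39.0 and 49.7 RPKM and Bax with group means between 21.8 and 26.9 RPKM. Bid came next, between 14.7 and 23.0 RPKM. Below these, the place of Bcl2 depended on the group: it was the fifth member by mean RPKM in NICD_TCFKO (8.33 ± 1.41), NOTCHWT_TCFKO (17.5 ± 2.39) and NICD_TCFWT (19.7 ± 1.97) libraries and the eighth in NOTCHWT_TCFWT libraries (3.31 ± 0.745; SD, n = 3 each). In NOTCHWT_TCFWT libraries Bcl2l11 (5.21 RPKM), Bcl2l1 (4.52 RPKM) and Pmaip1 (4.44 RPKM) all averaged above Bcl2. Bbc3 stayed between 2.26 and 3.20 RPKM, and Bcl2a1b averaged under 1 RPKM in every group. All RPKM values use the union of annotated exons, so a gene read mainly in a short isoform is understated.

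**Figure D1:**
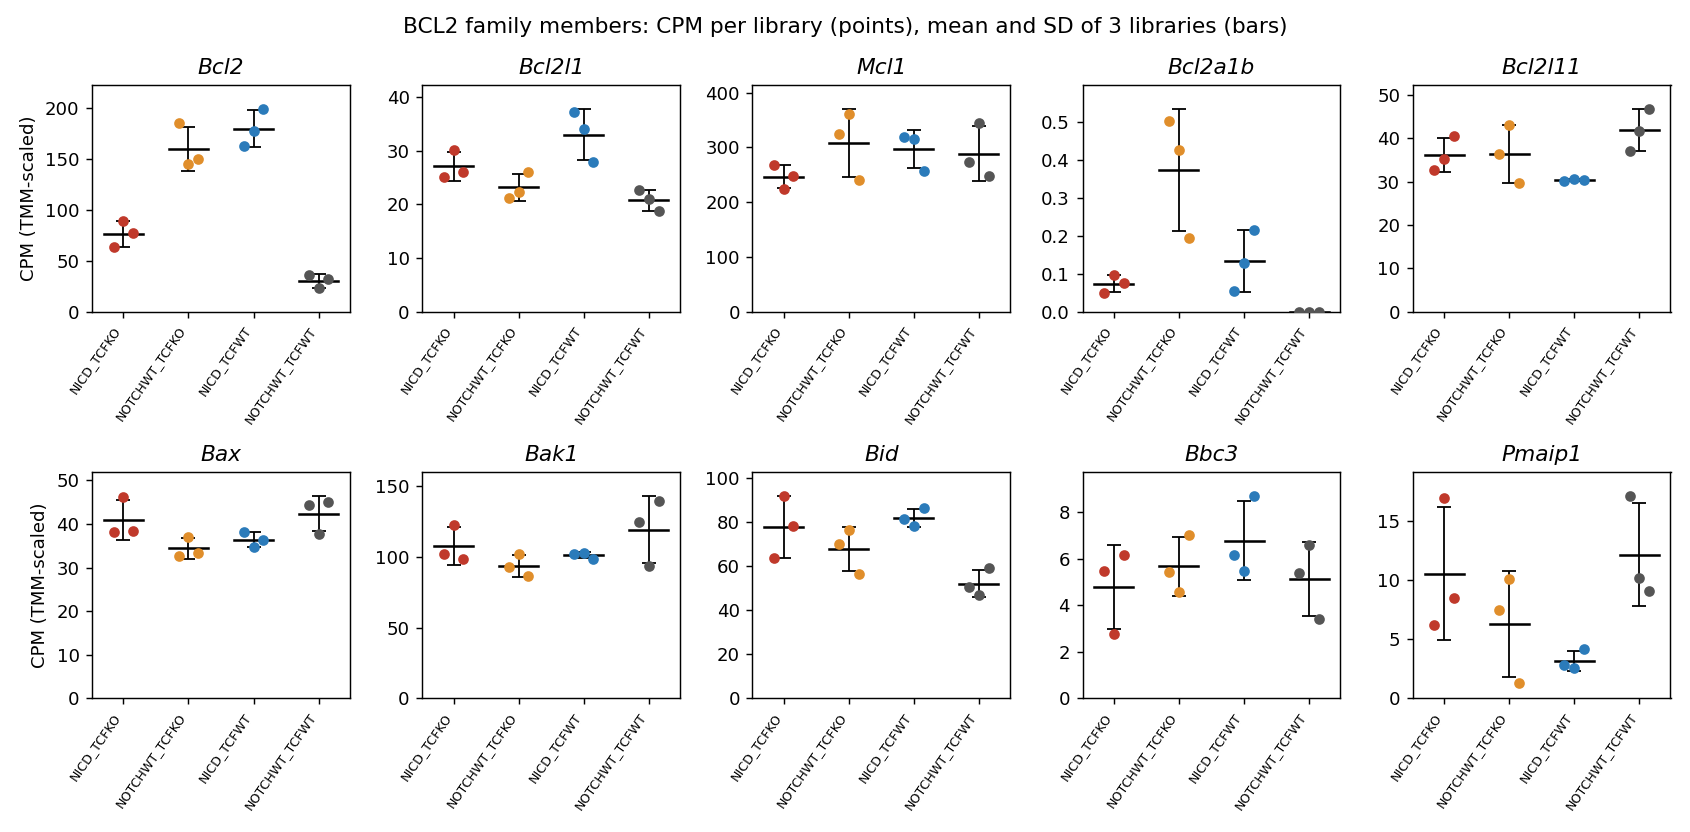
CPM (vertical axes, each from 0 on its own linear scale) of the 10 members in the 4 groups of 3 libraries; points are libraries, the long bar is the mean and the error bar the SD. Bcl2 separates the groups, with all NOTCHWT_TCFWT libraries at or below 35.9 CPM and all NOTCHWT_TCFKO and NICD_TCFWT libraries at or above 145 CPM.

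Bcl2, which encodes the prototype anti-apoptotic protein (ENSMUSG00000057329, mm10 chromosome 1, 106538178 to 106714274, minus strand), varied most of the 9 tested members: its group means spanned 2.59 on the log2 scale, against 1.89 for Pmaip1 and at most 0.66 for the other 7 tested members. It stood at 63.0, 88.8 and 76.9 CPM in NICD_TCFKO libraries, 185, 145 and 150 CPM in NOTCHWT_TCFKO libraries, 163, 178 and 199 CPM in NICD_TCFWT libraries, and 35.9, 22.7 and 32.3 CPM in NOTCHWT_TCFWT libraries. The NOTCHWT_TCFKO and NICD_TCFWT libraries were the high ones and overlapped each other, the NICD_TCFKO libraries lay between, and the NOTCHWT_TCFWT libraries were lowest, with no overlap between these 3 levels. Relative to NOTCHWT_TCFWT libraries, Bcl2 was 5.95-fold higher in NICD_TCFWT libraries (log2 fold change 2.57 ± 0.19 SE, adjusted p = 1.46e-05 by edgeR's quasi-likelihood test with Benjamini-Hochberg adjustment, as for every adjusted p below) and 5.28-fold higher in NOTCHWT_TCFKO libraries (2.40 ± 0.18, adjusted p = 1.68e-05). NICD_TCFKO libraries were 2.52-fold above NOTCHWT_TCFWT libraries (1.33 ± 0.18, adjusted p = 0.00269). They were lower than either of the groups that share 1 of their labels, by 2.36-fold against NICD_TCFWT libraries (-1.24 ± 0.18, adjusted p = 0.00202) and by 2.10-fold against NOTCHWT_TCFKO libraries (-1.07 ± 0.18, adjusted p = 0.00286). Between NOTCHWT_TCFKO and NICD_TCFWT libraries the log2 difference was -0.17 with a 95% interval of -0.56 to 0.21 (adjusted p = 0.593), which leaves room for a difference of either sign. These 6 comparisons share libraries pairwise and are not independent of each other. Without NOTCHWT_TCFKO 1, the library with both sexes' transcripts, the Bcl2 differences from NOTCHWT_TCFKO libraries were 2.30 (against NOTCHWT_TCFWT, adjusted p = 0.000101) and -0.96 (NICD_TCFKO against NOTCHWT_TCFKO, adjusted p = 0.0127).

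Levels in sorted bulk samples do not separate fewer cells of a type from less RNA per cell. Markers of other blood cells differed between the groups too. The granulocyte list (Mpo, Elane, Ctsg, Prtn3, S100a8, S100a9, Ly6g and Csf3r) summed to 343 to 1180 CPM in NICD_TCFKO, 1540 to 8910 CPM in NOTCHWT_TCFKO, 1670 to 6150 CPM in NICD_TCFWT and 64.2 to 122 CPM in NOTCHWT_TCFWT libraries, so its 3 levels held the same groups as those of Bcl2. The means of Mpo, Elane, Ctsg, Prtn3 and Csf3r each followed these levels, but S100a8, S100a9 and Ly6g did not. They averaged 24.1, 36.9 and 0.356 CPM in NICD_TCFKO against 0.989, 1.75 and 0.0271 CPM in NICD_TCFWT libraries. In NOTCHWT_TCFKO libraries S100a8 stood at 18.7, 593 and 5.84 CPM. Single libraries of Elane, Prtn3 and Csf3r overlapped between the levels that their means followed. Elane stood at 8.93, 12.9 and 307 CPM in NICD_TCFWT and at 12.2, 12.5 and 58.7 CPM in NICD_TCFKO libraries, so its NICD_TCFWT mean rests on NICD_TCFWT 3. Of the 8 genes of the list, 7 averaged at least 1 CPM in NICD_TCFKO, 8 in NOTCHWT_TCFKO, 6 in NICD_TCFWT and 5 in NOTCHWT_TCFWT libraries. No gene of the list was at 0 in any group. The T lineage list (Cd3d, Cd3e, Cd3g, Trbc2, Bcl11b, Il2ra, Ptcra and Lck) summed to 766 to 2280 CPM in NICD_TCFKO, 20.1 to 39.6 CPM in NOTCHWT_TCFKO, 25.2 to 48.0 CPM in NICD_TCFWT and 329 to 358 CPM in NOTCHWT_TCFWT libraries. All 8 of these genes averaged at least 1 CPM in NICD_TCFKO libraries, but only 3 did in NOTCHWT_TCFWT and 1 in NOTCHWT_TCFKO and in NICD_TCFWT libraries. The NOTCHWT_TCFWT sum was mostly Lck (203 CPM on average) and Trbc2 (136 CPM). Cd3d, Cd3e, Cd3g, Bcl11b and Ptcra averaged at most 0.379 CPM there. Ptcra was at 0 in NOTCHWT_TCFKO libraries, and Ptcra and Cd3g were at 0 in NICD_TCFWT libraries. The NK list of 7 genes summed to 360 to 490 CPM in NICD_TCFKO, 101 to 145 CPM in NOTCHWT_TCFKO, 131 to 160 CPM in NICD_TCFWT and 818 to 1580 CPM in NOTCHWT_TCFWT libraries. The macrophage list of 7 genes reached 286 to 480 CPM in NOTCHWT_TCFKO libraries, with Vcam1 the largest part (149 CPM on average), and at most 143 CPM in any other library. Csf1r of that list did not follow, with 85.5 CPM in NICD_TCFKO, 72.2 CPM in NOTCHWT_TCFKO, 35.0 CPM in NICD_TCFWT and 67.6 CPM in NOTCHWT_TCFWT libraries. The dendritic list of 6 genes summed to 285 to 967 CPM in NICD_TCFKO, 155 to 222 CPM in NOTCHWT_TCFKO, 88.3 to 121 CPM in NICD_TCFWT and 332 to 851 CPM in NOTCHWT_TCFWT libraries, where Batf3 and Siglech of it were at 0. The NK and dendritic sums were thus low in the 2 groups in which Bcl2 was high, the reverse of the granulocyte sums. Not all NK genes did so. Gzma, Gzmb, Prf1 and Nkg7 went with the sum, and Gzmb averaged 1010 CPM in NOTCHWT_TCFWT and 3.95 CPM in NICD_TCFWT libraries. Klrb1c went the other way, with 0.956 CPM in NOTCHWT_TCFWT, 12.3 CPM in NICD_TCFWT and 2.48 CPM in NOTCHWT_TCFKO libraries. Ncr1 averaged at most 0.659 CPM and Eomes at most 0.161 CPM in any group. Of the dendritic genes, H2-Aa, H2-Ab1 and Cd74 went with their sum, while Itgax, Siglech and Batf3 did not. Itgax averaged 113 CPM in NICD_TCFKO, 7.57 CPM in NOTCHWT_TCFKO, 17.4 CPM in NICD_TCFWT and 15.1 CPM in NOTCHWT_TCFWT libraries. Siglech was highest in NOTCHWT_TCFKO libraries (2.93 CPM). The part of these cells in the results on the members was not tested.

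Bcl2l1, the gene of BCL-XL, an anti-apoptotic protein of erythroid cells and platelets, stood at 25.0, 30.1 and 26.0 CPM in NICD_TCFKO, 21.2, 22.2 and 26.0 CPM in NOTCHWT_TCFKO, 37.1, 34.0 and 27.8 CPM in NICD_TCFWT and 22.6, 20.9 and 18.7 CPM in NOTCHWT_TCFWT libraries. It was 1.59-fold higher in NICD_TCFWT than in NOTCHWT_TCFWT libraries, which did not overlap (0.67 ± 0.13, adjusted p = 0.00575). No other comparison of Bcl2l1 passed the threshold. The nearest was NOTCHWT_TCFKO against NICD_TCFWT, where the libraries did not overlap either and the log2 difference was -0.51 (95% interval -0.81 to -0.22, adjusted p = 0.0646).

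Mcl1, the short-lived anti-apoptotic member, stood at 267, 224 and 248 CPM in NICD_TCFKO, 324, 360 and 240 CPM in NOTCHWT_TCFKO, 319, 315 and 256 CPM in NICD_TCFWT and 274, 344 and 247 CPM in NOTCHWT_TCFWT libraries. All groups overlapped, and no comparison passed the threshold. The lowest adjusted p was 0.197, in NICD_TCFKO against NOTCHWT_TCFKO libraries, with a log2 difference of -0.32 and a 95% interval of -0.68 to 0.04.

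Bcl2a1b, a copy of the gene of the NF-kB-induced anti-apoptotic protein A1, was near the floor. It had 2, 4 and 3 counts in NICD_TCFKO, 19, 16 and 8 counts in NOTCHWT_TCFKO, 2, 5 and 8 counts in NICD_TCFWT and 0 counts in all 3 NOTCHWT_TCFWT libraries, 67 counts in all. It did not pass the filter on low counts and was not among the 9 members tested. Its mean of 0.374 ± 0.16 CPM in NOTCHWT_TCFKO libraries (SD, n = 3) is at least 3.77-fold higher than 3 counts in each NOTCHWT_TCFWT library would give. Tested without that filter, it was called higher in NICD_TCFWT (adjusted p = 0.0158) and in NOTCHWT_TCFKO libraries (adjusted p = 0.00283) than in NOTCHWT_TCFWT libraries, and its interaction was called (adjusted p = 0.00359). The value is uncertain as a measure of A1: the mouse genome holds near-identical copies that share reads, and 401 of its 817 exon bases are shared with another annotated gene on the same strand. Bcl2a1c had no count, and Bcl2a1a and Bcl2a1d matched no gene of the count table by symbol.

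Neither effector passed in a pairwise comparison by edgeR's test with all libraries. Bax stood at 38.2, 46.2 and 38.4 CPM in NICD_TCFKO, 32.6, 37.1 and 33.4 CPM in NOTCHWT_TCFKO, 38.1, 34.6 and 36.4 CPM in NICD_TCFWT and 44.4, 37.7 and 45.0 CPM in NOTCHWT_TCFWT libraries. The NOTCHWT_TCFKO libraries lay below all NICD_TCFKO and NOTCHWT_TCFWT libraries without overlap, but none of the 6 pairwise comparisons passed the threshold, the nearest being NOTCHWT_TCFKO against NOTCHWT_TCFWT (-0.30, 95% interval -0.53 to -0.08, adjusted p = 0.058). There it passed in DESeq2 (adjusted p = 0.0415) and on leaving out NOTCHWT_TCFWT 2, NICD_TCFKO 2 or NOTCHWT_TCFKO 2 (adjusted p = 0.04 to 0.0481). Bak1 stood at 102, 123 and 98.6 CPM in NICD_TCFKO, 93.1, 102 and 86.4 CPM in NOTCHWT_TCFKO, 102, 103 and 98.9 CPM in NICD_TCFWT and 125, 93.4 and 140 CPM in NOTCHWT_TCFWT libraries. Its groups overlapped in every pair, and its lowest adjusted p was 0.0903, in NOTCHWT_TCFKO against NOTCHWT_TCFWT libraries (-0.35, 95% interval -0.65 to -0.05). Without NOTCHWT_TCFWT 2 it passed there (adjusted p = 0.0149) and in NICD_TCFWT against NOTCHWT_TCFWT libraries (adjusted p = 0.0423). Of the 2407 exon bases of Bak1, 437 overlap Ggnbp1 on the opposite strand, and the strand setting of the counting is not given in the sources used here. Ggnbp1 had 2992 counts in all libraries, against 48633 for Bak1.

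Among the BH3-only members Bid, whose protein links death receptors to mitochondria once caspase-8 cleaves it, stood at 63.6, 91.5 and 78.2 CPM in NICD_TCFKO, 69.9, 76.1 and 56.5 CPM in NOTCHWT_TCFKO, 81.1, 77.9 and 86.3 CPM in NICD_TCFWT and 50.4, 46.8 and 58.9 CPM in NOTCHWT_TCFWT libraries. It was 1.57-fold higher in NICD_TCFWT than in NOTCHWT_TCFWT libraries (0.65 ± 0.14, adjusted p = 0.0101), and 1.49-fold higher in NICD_TCFKO than in NOTCHWT_TCFWT libraries (0.58 ± 0.14, adjusted p = 0.0393). Neither pair overlapped. The second call was lost in 12 of 21 alternative analyses, among them the fit of only the compared groups (adjusted p = 0.0849) and the omission of any NOTCHWT_TCFWT library (adjusted p = 0.0629 to 0.126). Bid shares 628 of its 3550 exon bases with Bcl2l13 on the opposite strand, and Bcl2l13 averaged 99.1 CPM in NICD_TCFKO, 117 in NOTCHWT_TCFKO, 97.7 in NICD_TCFWT and 120 in NOTCHWT_TCFWT libraries, and passed in no pairwise comparison.

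Bcl2l11, the gene of BIM, stood at 32.7, 35.2 and 40.5 CPM in NICD_TCFKO, 36.3, 43.0 and 29.6 CPM in NOTCHWT_TCFKO, 30.2, 30.5 and 30.4 CPM in NICD_TCFWT and 37.0, 41.7 and 46.7 CPM in NOTCHWT_TCFWT libraries. It was 1.38-fold lower in NICD_TCFWT than in NOTCHWT_TCFWT libraries, without overlap (-0.46 ± 0.14, adjusted p = 0.036). That call was lost in 8 of 21 alternatives, with an adjusted p of 0.0914 to 0.115 without any 1 of the NICD_TCFWT libraries and 0.159 with sex as a covariate. No other pairwise comparison of Bcl2l11 passed.

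The BH3-only genes Bbc3 and Pmaip1, both induced by p53, were low and scattered. Bbc3, the gene of PUMA, stood between 2.76 and 6.15 CPM in NICD_TCFKO, between 4.57 and 7.03 CPM in NOTCHWT_TCFKO, between 5.50 and 8.71 CPM in NICD_TCFWT and between 3.43 and 6.61 CPM in NOTCHWT_TCFWT libraries. Every pair of groups overlapped, and the lowest adjusted p was 0.355. Pmaip1, the gene of NOXA, which binds MCL-1, stood at 6.20, 16.9 and 8.47 CPM in NICD_TCFKO, 7.45, 10.1 and 1.29 CPM in NOTCHWT_TCFKO, 2.80, 2.57 and 4.14 CPM in NICD_TCFWT and 17.1, 10.2 and 9.06 CPM in NOTCHWT_TCFWT libraries. The NICD_TCFWT libraries lay below all NICD_TCFKO and all NOTCHWT_TCFWT libraries. The intervals were wide: the log2 difference was -1.94 against NOTCHWT_TCFWT libraries (95% interval -3.37 to -0.50, adjusted p = 0.0593) and 1.73 for NICD_TCFKO against NICD_TCFWT libraries (0.30 to 3.15, adjusted p = 0.106). Both passed in DESeq2 (adjusted p = 0.00555 and 0.0206) and without NOTCHWT_TCFKO 3, the library with the lowest Pmaip1 value (adjusted p = 0.00832 and 0.0202).

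The bases before the start of transcription are shown for Bcl2, the tested member with the widest range, and for Bid and Bax, the called members whose windows held a match to one of the 3 short motifs searched. Bax was called in the interaction only, and that call was not stable. The windows are the 250 bases upstream of the RefSeq start on GRCm38.p6, read 5′ to 3′ on the gene's own strand: Bcl2 at chr1:106714291-106714540, Bid at chr6:120916825-120917074 and Bax at chr7:45466899-45467148, all on the minus strand. Capitals mark matches.
Bcl2: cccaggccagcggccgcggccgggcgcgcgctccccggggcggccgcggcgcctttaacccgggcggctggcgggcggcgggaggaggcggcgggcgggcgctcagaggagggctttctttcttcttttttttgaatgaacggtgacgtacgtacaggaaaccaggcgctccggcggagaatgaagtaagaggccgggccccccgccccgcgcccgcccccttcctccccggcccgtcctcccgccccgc
Bid: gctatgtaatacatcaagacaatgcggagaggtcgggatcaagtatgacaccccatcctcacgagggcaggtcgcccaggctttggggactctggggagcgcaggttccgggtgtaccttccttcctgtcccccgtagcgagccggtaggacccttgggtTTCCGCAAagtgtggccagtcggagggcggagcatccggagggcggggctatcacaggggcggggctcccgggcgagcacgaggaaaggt
Bax: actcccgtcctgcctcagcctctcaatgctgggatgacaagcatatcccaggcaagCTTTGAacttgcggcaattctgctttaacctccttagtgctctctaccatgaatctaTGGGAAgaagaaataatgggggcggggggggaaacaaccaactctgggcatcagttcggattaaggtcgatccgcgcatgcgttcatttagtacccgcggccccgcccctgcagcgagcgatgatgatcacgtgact
The motifs were TGGGAA for RBPJ, the DNA-binding partner of the Notch intracellular domain, CTTTGA for TCF/LEF factors such as TCF-1, and TTGCNNAA for C/EBP factors, each sought on both strands and not overlapping each other in these windows. The Bcl2 window, with 74.8% G and C, held none of them. Bid held 1 C/EBP match, and Bax held 1 RBPJ and 1 TCF/LEF match. Over 32851 RefSeq promoter windows of this length, 21.6% held the RBPJ letters, 13.8% the TCF/LEF letters and 9.56% the C/EBP letters. Windows were found for 9 members, 14 windows in all, and apart from Bid and Bax only the Bcl2a1b window held a match, 1 to RBPJ and 1 to TCF/LEF. A match is a stretch of letters and not a shown binding site.

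Counted by comparison, 4 of the 9 tested members passed in NICD_TCFWT against NOTCHWT_TCFWT libraries, 3 higher (Bcl2, Bcl2l1 and Bid) and 1 lower (Bcl2l11), where 20.4% of all 16024 genes tested passed (10.6% higher and 9.75% lower). The median log2 difference of the tested members there was 0.04, against 0.00 over all genes tested. In NOTCHWT_TCFKO against NOTCHWT_TCFWT libraries only Bcl2 passed, with 21.3% of all genes passing (10.8% higher and 10.5% lower), and the members' median was 0.10. In NICD_TCFKO against NICD_TCFWT libraries Bcl2 alone passed, lower, with 12.4% of all genes passing (7.25% higher and 5.15% lower), and in NICD_TCFKO against NOTCHWT_TCFKO libraries again Bcl2 alone, lower, with 18.4% passing (10.3% higher and 8.06% lower). In NICD_TCFKO against NOTCHWT_TCFWT libraries 2 members passed, Bcl2 and Bid, both higher, with 6.3% passing (4.01% higher and 2.3% lower). None passed in NOTCHWT_TCFKO against NICD_TCFWT libraries by edgeR's test, where 2.87% of all genes did (1.34% higher and 1.54% lower); Bcl2l1 had an unadjusted p of 0.0027 and passed in DESeq2 (adjusted p = 0.00902). These backgrounds move with single libraries: with any one of 5 libraries left out, the genes called in NICD_TCFKO against NICD_TCFWT libraries fell to 564 to 730 higher and 332 to 412 lower, against 1161 and 825 with all libraries.

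**Figure D2:**
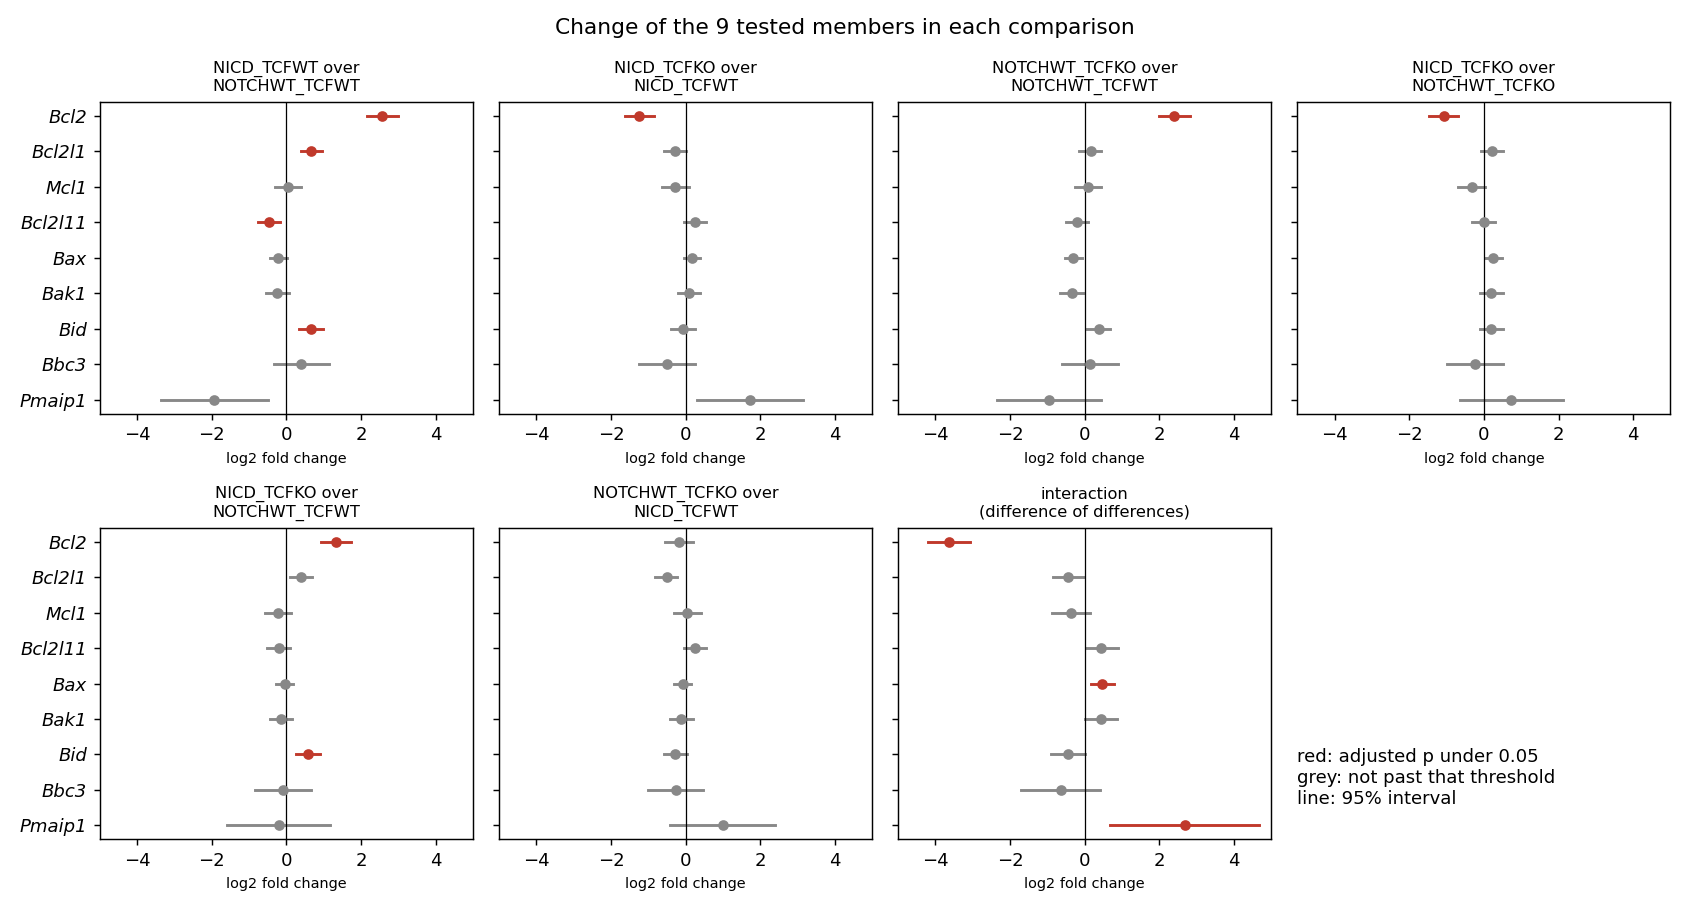
Log2 fold change (horizontal axis) of the 9 tested members in the 6 pairwise comparisons and the interaction; points are estimates, lines 95% intervals, and red marks an adjusted p under 0.05. Bcl2 is red in 5 of the 6 pairwise panels and in the interaction, and Pmaip1 has the widest intervals.

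The interaction asks whether the difference that goes with labelled Tcf7 loss is the same in libraries labelled with N1IC as in those without. For Bcl2 it was not: the difference was -1.24 for NICD_TCFKO against NICD_TCFWT libraries and 2.40 for NOTCHWT_TCFKO against NOTCHWT_TCFWT libraries, an interaction of -3.64 ± 0.26 (95% interval -4.21 to -3.08, adjusted p = 6.02e-06). Across all genes tested 27.4% had an interaction past the threshold (13.8% higher and 13.5% lower), and 3 of 9 members did. Bax had an interaction of 0.47 ± 0.14 (adjusted p = 0.0318) and Pmaip1 one of 2.68 ± 0.89 (adjusted p = 0.0487). Neither positive call was stable: that of Bax was lost in 11 of 20 alternatives and that of Pmaip1 in 14 of 20, whereas that of Bcl2 passed in all 20.

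**Figure D3:**
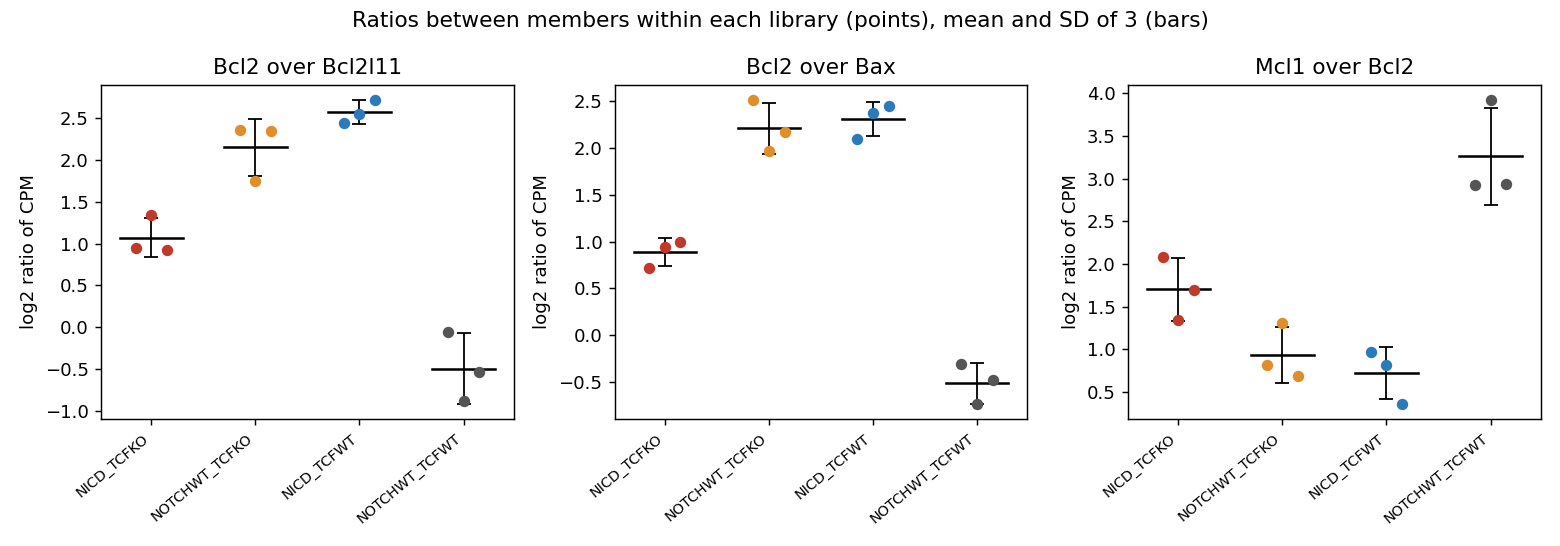
Log2 ratios of the CPM of member pairs within each library (points), with the mean and SD of 3 libraries per group (bars). Both Bcl2 ratios are highest in NOTCHWT_TCFKO and NICD_TCFWT libraries and lowest in NOTCHWT_TCFWT libraries, and the ratio of Mcl1 to Bcl2 runs the other way.

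The ratios of members within libraries differed between groups along with Bcl2. These are ratios of CPM, not corrected for length, so only their differences between groups are read. The log2 ratio of Bcl2 to Bcl2l11 averaged 1.07 ± 0.23 in NICD_TCFKO, 2.15 ± 0.34 in NOTCHWT_TCFKO, 2.57 ± 0.14 in NICD_TCFWT and -0.49 ± 0.42 in NOTCHWT_TCFWT libraries (SD, n = 3 each). The ratio of Bcl2 to Bax averaged 0.89 ± 0.15 in NICD_TCFKO, 2.21 ± 0.27 in NOTCHWT_TCFKO, 2.31 ± 0.18 in NICD_TCFWT and -0.51 ± 0.22 in NOTCHWT_TCFWT libraries. That of Mcl1 to Bcl2 averaged 1.70 ± 0.37 in NICD_TCFKO, 0.93 ± 0.33 in NOTCHWT_TCFKO, 0.72 ± 0.31 in NICD_TCFWT and 3.26 ± 0.57 in NOTCHWT_TCFWT libraries. NOTCHWT_TCFWT libraries did not overlap any other group in any of the 3 ratios. No test was made of them.

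Among the members themselves, the closest pair over the 12 libraries was Bax and Bak1 (Pearson r of log2 CPM 0.89), and the most opposed were Bcl2l1 and Bcl2l11 (r -0.77). Bcl2 had an r of 0.72 with Bid, 0.58 with Bcl2l1 and -0.64 with Bcl2l11. These are descriptions over 12 libraries that fall into 4 groups and share depth and group structure. Of 10884 candidate genes, the one whose levels followed Bcl2 most closely was Cebpa, a transcription factor of granulocyte and monocyte progenitors (r 0.983). Cebpa averaged 3.55 CPM in NICD_TCFKO, 61.1 CPM in NOTCHWT_TCFKO, 50.8 CPM in NICD_TCFWT and 0.0636 CPM in NOTCHWT_TCFWT libraries, the last under the 0.0992 CPM that 3 counts make there. Ifngr2, a chain of the interferon-gamma receptor (r 0.967), and Chst12, a chondroitin sulfotransferase (r 0.966), came next. Closest to Pmaip1 were Arf4 (r 0.942), Zc3h15 and Noct (r 0.933 each), and closest to Bcl2l1 were Lpcat4 (r 0.917) and Ppp5c (r 0.916).

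Other BCL2 relatives differed as well. Of a list of 15 further relatives 9 were tested, and every call fell on Bcl2l14, Bnip3 or Bmf. Among those not tested, Bcl2a1a and Bcl2a1d matched no gene of the count table by symbol. Of all genes tested, 2.87% to 21.3% passed in the pairwise comparisons and 27.4% in the interaction. Bcl2l14, whose product is also called BCL-G, stood at 18.4, 33.2 and 25.9 CPM in NICD_TCFKO, 2.48, 2.34 and 3.47 CPM in NOTCHWT_TCFKO, 5.62, 4.83 and 4.41 CPM in NICD_TCFWT and 16.8, 15.9 and 11 CPM in NOTCHWT_TCFWT libraries. It was low where Bcl2 was highest. Against NOTCHWT_TCFWT libraries it was lower in NICD_TCFWT (-1.56 ± 0.25, adjusted p = 0.00178) and in NOTCHWT_TCFKO libraries (-2.40 ± 0.26, adjusted p = 0.000133), and it was higher in NICD_TCFKO libraries than in NICD_TCFWT (2.38 ± 0.25, adjusted p = 0.000381) and NOTCHWT_TCFKO libraries (3.22 ± 0.26, adjusted p = 3.25e-05).

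Bnip3, a hypoxia-induced mitophagy receptor, followed the pattern of Bcl2. It stood at 12.5, 6.51 and 12.3 CPM in NICD_TCFKO, 24.8, 20.6 and 26.9 CPM in NOTCHWT_TCFKO, 21.5, 25.4 and 24.5 CPM in NICD_TCFWT and 9.23, 9.88 and 6.93 CPM in NOTCHWT_TCFWT libraries. The high libraries were again those of NOTCHWT_TCFKO and NICD_TCFWT, and the other groups overlapped each other. It was higher than in NOTCHWT_TCFWT libraries by 1.46 ± 0.24 in NICD_TCFWT (adjusted p = 0.00195) and by 1.47 ± 0.24 in NOTCHWT_TCFKO libraries (adjusted p = 0.00162). Bmf, a BH3-only gene whose protein can be freed from the cytoskeleton, stood at 6.38, 10.5 and 11.4 CPM in NICD_TCFKO libraries and between 2.70 and 5.09 CPM in all others, so NICD_TCFKO was high without overlap. It was higher there than in NOTCHWT_TCFKO (1.25 ± 0.30, adjusted p = 0.0172), NICD_TCFWT (1.33 ± 0.30, adjusted p = 0.0176) and NOTCHWT_TCFWT libraries (1.41 ± 0.30, adjusted p = 0.0221). Bcl2l2, the gene of BCL-W, ranged between 22.0 and 34.5 CPM over all libraries and Bad between 16.5 and 21.1 CPM, and neither passed in any pairwise comparison.

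**Figure D4:**
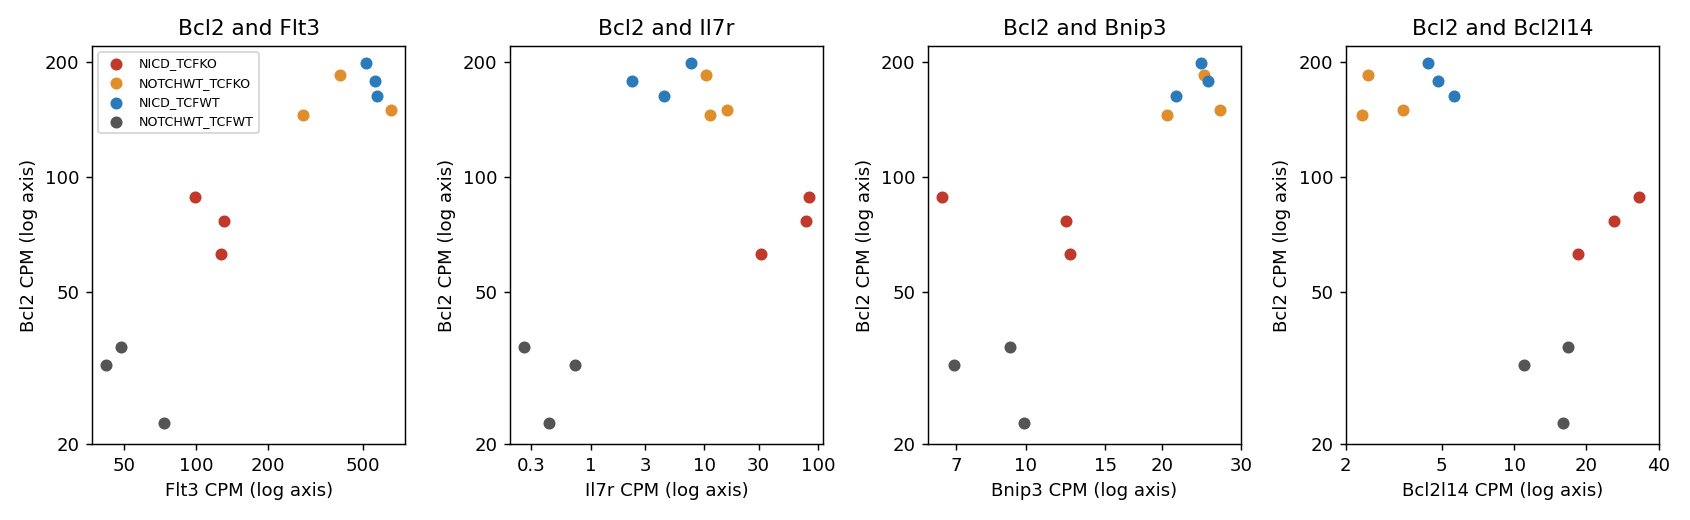
CPM of Bcl2 (vertical, log axis) against CPM of Flt3, Il7r, Bnip3 and Bcl2l14 (horizontal, log axes) in the 12 libraries, coloured by group. NOTCHWT_TCFKO and NICD_TCFWT libraries share the upper end of Bcl2 with the highest Flt3 and Bnip3 and the lowest Bcl2l14, while Il7r is highest in NICD_TCFKO libraries, whose Bcl2 is intermediate.

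Downstream of the family, all 11 genes of the caspase cascade list were tested. Against NOTCHWT_TCFWT libraries, 2 were lower in NICD_TCFWT (Apaf1 and Birc2) and 3 in NOTCHWT_TCFKO libraries (Birc2, Birc3 and Casp6), with none higher in either. Of all genes, 20.4% passed in NICD_TCFWT and 21.3% in NOTCHWT_TCFKO against NOTCHWT_TCFWT libraries. In NOTCHWT_TCFKO libraries the calls were lost in 9 of 21 alternatives for Birc2, 13 for Birc3 and 17 for Casp6. The median of the list was -0.21 in NICD_TCFWT and -0.11 in NOTCHWT_TCFKO libraries against NOTCHWT_TCFWT libraries. Apaf1, the scaffold of the apoptosome, averaged 108 ± 3.77 CPM in NICD_TCFKO, 101 ± 18.9 CPM in NOTCHWT_TCFKO, 76.3 ± 2.90 CPM in NICD_TCFWT and 127 ± 4.14 CPM in NOTCHWT_TCFWT libraries (SD, n = 3 each). It was lower in NICD_TCFWT than in NOTCHWT_TCFWT libraries (-0.74 ± 0.11, adjusted p = 0.00134). Casp6, an executioner caspase, averaged 44.1 ± 6.28 CPM in NICD_TCFKO, 25.8 ± 1.74 CPM in NOTCHWT_TCFKO, 26.3 ± 1.49 CPM in NICD_TCFWT and 32.9 ± 2.29 CPM in NOTCHWT_TCFWT libraries (SD, n = 3 each), with no overlap between NICD_TCFKO and any other group. It was higher in NICD_TCFKO than in NICD_TCFWT (0.74 ± 0.11, adjusted p = 0.00235) and NOTCHWT_TCFKO libraries (0.77 ± 0.11, adjusted p = 0.00123). The smaller call against NOTCHWT_TCFWT libraries (0.42 ± 0.11, adjusted p = 0.0482) was lost in 17 of 21 alternatives. Of Birc2, Birc3, Casp8 and Htra2, every called pairwise difference was at most 0.45 in size.

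Upstream, 15 of 16 listed regulators were tested. All calls against NOTCHWT_TCFWT libraries were lower, 4 in NICD_TCFWT (Fbxw7, Nfkb1, Stat3 and Stat5a) and 7 in NOTCHWT_TCFKO libraries (Huwe1, Mdm2, Nfkb1, Stat3, Stat5a, Stat5b and Trp53), and all those of NICD_TCFKO against NICD_TCFWT (2) and NOTCHWT_TCFKO libraries (5) were higher. Against NOTCHWT_TCFWT libraries 20.4% of all genes passed in NICD_TCFWT and 21.3% in NOTCHWT_TCFKO, and for NICD_TCFKO libraries 12.4% passed against NICD_TCFWT and 18.4% against NOTCHWT_TCFKO. Nfkb1, which encodes the p105 and p50 forms of NF-kB, averaged 386 ± 41.9 CPM in NICD_TCFKO, 255 ± 22.1 CPM in NOTCHWT_TCFKO, 289 ± 14.6 CPM in NICD_TCFWT and 407 ± 9.43 CPM in NOTCHWT_TCFWT libraries (SD, n = 3 each). Stat3, a cytokine-activated transcription factor, averaged 302 ± 19.6 CPM in NICD_TCFKO, 205 ± 24.3 CPM in NOTCHWT_TCFKO, 233 ± 14.5 CPM in NICD_TCFWT and 326 ± 22.1 CPM in NOTCHWT_TCFWT libraries (SD, n = 3 each). Both genes were thus low in the 2 groups in which Bcl2 was high. Against NOTCHWT_TCFWT libraries Nfkb1 was lower in NICD_TCFWT (-0.49 ± 0.09, adjusted p = 0.00333) and in NOTCHWT_TCFKO libraries (-0.67 ± 0.09, adjusted p = 0.000464). Trp53, the gene of p53, passed in NOTCHWT_TCFKO against NOTCHWT_TCFWT libraries (-0.41 ± 0.08, adjusted p = 0.00452). The p53-induced Bbc3 (0.14 ± 0.34, adjusted p = 0.805) and Pmaip1 (-0.95 ± 0.63, adjusted p = 0.318) did not pass there. Their intervals, -0.6 to 0.89 for Bbc3 and -2.34 to 0.44 for Pmaip1, leave room for a difference of either sign. Whether Trp53 bears on these genes was not tested.

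**Figure D5:**
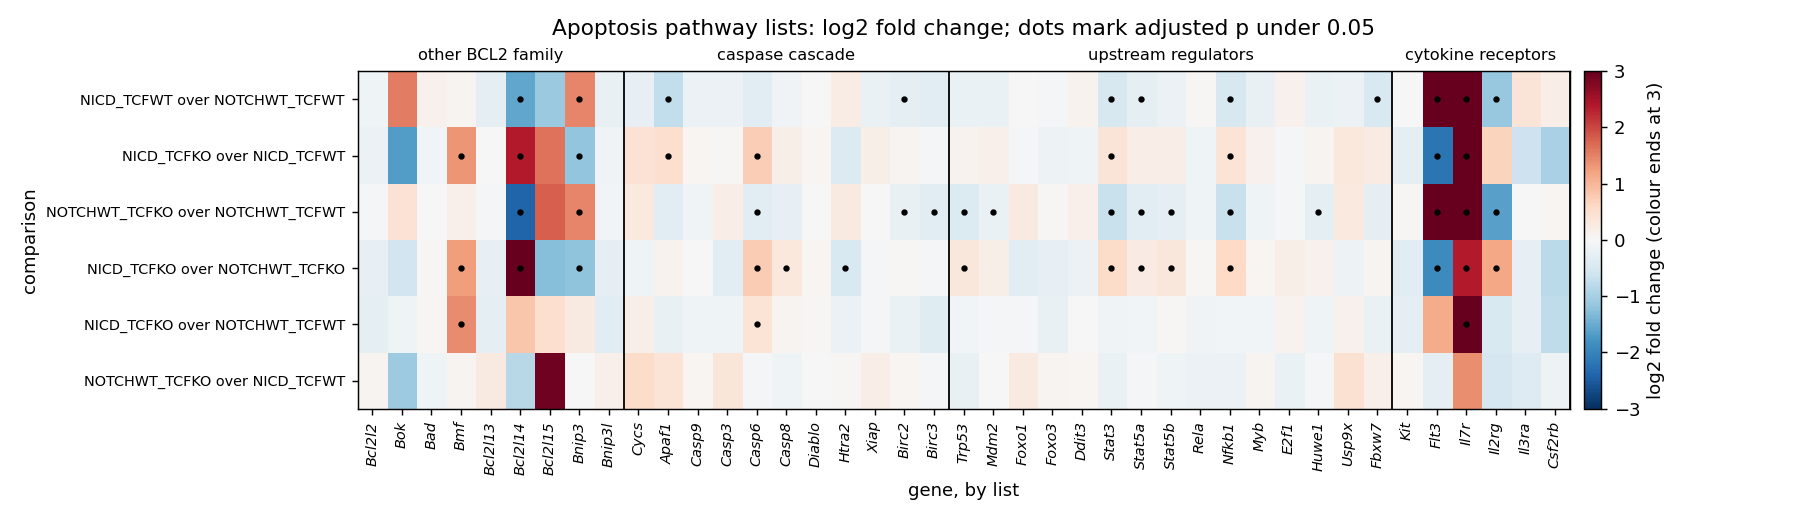
Log2 fold change (colour, ending at 3 in either direction) of the 41 tested genes of the 4 pathway lists (horizontal axis) in the 6 pairwise comparisons (vertical axis); dots mark an adjusted p under 0.05. Flt3, Il7r, Bcl2l14, Il2rg and Bnip3 carry strong colours with dots, and the caspase and regulator lists are pale.

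All 6 listed cytokine receptor genes were tested. Against NOTCHWT_TCFWT libraries, Flt3 and Il7r were higher and Il2rg lower in both NICD_TCFWT and NOTCHWT_TCFKO libraries, and Il7r alone was higher in NICD_TCFKO libraries. Of all genes, 20.4% passed in NICD_TCFWT, 21.3% in NOTCHWT_TCFKO and 6.3% in NICD_TCFKO against NOTCHWT_TCFWT libraries. Flt3, the receptor of multipotent and lymphoid progenitors, stood at 127, 99.4 and 131 CPM in NICD_TCFKO, 400, 280 and 656 CPM in NOTCHWT_TCFKO, 570, 559 and 515 CPM in NICD_TCFWT and 48.6, 73.9 and 42.3 CPM in NOTCHWT_TCFWT libraries. Its groups stood in the same order as those of Bcl2, although NICD_TCFKO against NOTCHWT_TCFWT libraries missed the threshold (adjusted p = 0.0523). It was higher than in NOTCHWT_TCFWT libraries by 3.32 ± 0.32 in NICD_TCFWT (adjusted p = 0.000137) and by 3.02 ± 0.31 in NOTCHWT_TCFKO libraries (adjusted p = 0.000164). Il7r, the interleukin-7 receptor that in lymphocytes maintains BCL-2, stood at 31.7, 83.4 and 78.6 CPM in NICD_TCFKO, 10.3, 11.3 and 15.9 CPM in NOTCHWT_TCFKO, 4.37, 2.29 and 7.63 CPM in NICD_TCFWT and 0.26, 0.43 and 0.724 CPM in NOTCHWT_TCFWT libraries. No 2 groups overlapped. Il7r was highest in NICD_TCFKO libraries, where Bcl2 was intermediate. It was higher in NICD_TCFKO than in NICD_TCFWT libraries by 3.76 ± 0.53 (adjusted p = 0.00215), and Bcl2 was lower there by 1.24. Whether Il7r bears on Bcl2 in these cells was not tested. Il2rg, the shared chain of the interleukin-2 and interleukin-7 receptors, averaged 119 ± 8.75 CPM in NICD_TCFKO, 53.2 ± 14.4 CPM in NOTCHWT_TCFKO, 75.2 ± 19.3 CPM in NICD_TCFWT and 164 ± 5.76 CPM in NOTCHWT_TCFWT libraries (SD, n = 3 each). The NOTCHWT_TCFWT libraries, lowest in Bcl2, were highest in Il2rg, and against them Il2rg was lower in NICD_TCFWT (-1.13 ± 0.21, adjusted p = 0.0043) and NOTCHWT_TCFKO libraries (-1.62 ± 0.21, adjusted p = 0.000519).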

How the data were processed

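Raw counts per Ensembl gene were deposited by the authors for each of the 12 libraries, as single-end reads of 75 nt per the labels' protocols. The submitters' processing notes name mm10 as the build and, without roles, featureCounts 1.4.4, HISAT2, cutadapt 1.9.1, bcl2fastq 2.17, limma and edgeR 3.28.0. No count fell on any of 37 mitochondrial genes. A second deposited table, of normalized values, was not used here.

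From the counts, 16024 of 39017 genes passed edgeR's filterByExpr by group and were tested. Libraries were scaled by TMM, and all 12 libraries entered one quasi-likelihood model of the 4 group means (edgeR 4.0.16, R 4.3.3), with two-sided F tests, robust dispersion and Benjamini-Hochberg adjustment over all genes tested at a threshold of 0.05. The common biological coefficient of variation was 0.299. SE is the log2 fold change over the square root of F. CPM use the scaled library, and RPKM the exon union of GENCODE M21. Correlations used log2 CPM with a prior count of 2. The procedure was tested on simulated data with 200 changed genes. The floor of 3 counts and the intervals cover counting error or the spread between these libraries only. Symbols matched 37607 genes.

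The members, the pathway lists and the tests were chosen with earlier results of these data known. All members are named in every comparison. From each pathway list up to 3 called genes with the smallest adjusted p were given statistics, other called genes being listed by name, and for the 3 members with the widest range the 3 genes with the highest Pearson r. A few genes that these rules or lists hold are not reported here and stand in no list count. Bcl2l2, Bad, Bcl2l13 and Ggnbp1 were named after their values were seen. Alternatives were RLE size factors, no filter, a filter of 1 CPM in 3 libraries, DESeq2 1.42.0, limma-voom (limma 3.58.1), only the groups compared, a replicate block, covariates for library sheet and for sex, and leaving out each library in turn. The labels name no library sheet. That covariate was a split assumed here, of NOTCHWT_TCFWT 3, NICD_TCFWT 3 and NICD_TCFKO 3 from all other libraries. It held no NOTCHWT_TCFKO library. Promoter windows came from RefSeq on GRCm38.p6. No protein sequence was used here, and no sequence is shown for Pmaip1.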

Additional observations from a re-analysis of the deposited data

Results flagged for a closer look

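For 3 members the difference that goes with labelled Tcf7 loss was not the same in libraries labelled with N1IC as in those without, by the interaction term of edgeR's quasi-likelihood test with Benjamini-Hochberg adjustment. Bcl2 had an interaction of -3.64 (adjusted p = 6.02e-06), with opposite signs in the 2 settings: -1.24 for NICD_TCFKO against NICD_TCFWT and 2.40 for NOTCHWT_TCFKO against NOTCHWT_TCFWT libraries. Bax had an interaction of 0.47 (adjusted p = 0.0318), from 0.17 and -0.30 in the same pairs. Pmaip1 had an interaction of 2.68 (adjusted p = 0.0487), from 1.73 and -0.95. The interaction call of Bax was lost in 11 of 20 alternatives and that of Pmaip1 in 14 of 20. The labels' own genes, Tcf7 and Notch1, go against the labels of some of the libraries that enter these terms.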

How the results depend on the processing

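Under all alternatives Bcl2 passed in the 5 pairwise comparisons in which it was called and in the interaction, with log2 values of 2.42 to 2.72 for NICD_TCFWT against NOTCHWT_TCFWT libraries and -3.80 to -3.50 for the interaction. Bcl2l1 and Bid kept their calls in NICD_TCFWT against NOTCHWT_TCFWT libraries in 21 of 21 alternatives. Of 1314 member values, 1220 kept direction and side of the threshold, 45 lost the call, 26 gained one and 23 changed sign, all of the last uncalled.

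The number of members called depended on the setting, and the cause was not tested. In NICD_TCFKO against NICD_TCFWT libraries it was 2 with DESeq2 and with only the groups compared, and 1 to 2 with a library left out. In NOTCHWT_TCFKO against NOTCHWT_TCFWT libraries it was 2 with no filter, which adds Bcl2a1b, 2 with DESeq2 and 2 with the sex covariate, and 1 to 4 with a library left out. In NICD_TCFKO against NOTCHWT_TCFWT libraries it was 1 with limma-voom, with the replicate block and with only the groups compared, and 1 to 2 with a library left out. In NOTCHWT_TCFKO against NICD_TCFWT libraries it was 1 with DESeq2 and with the sheet covariate, and 0 to 2 with a library left out, the 2 without NOTCHWT_TCFKO 3. For the interaction it was 1 with the replicate block and 1 to 4 with a library left out. In NICD_TCFKO against NOTCHWT_TCFKO libraries it was 1 to 3 with a library left out. In NICD_TCFWT against NOTCHWT_TCFWT libraries it was 3 to 6, within 1.5 times of the 4 reported. The replicate block moved the called genes of NOTCHWT_TCFKO against NICD_TCFWT libraries to 132 higher and 159 lower, against 214 and 246. The samples share only a number: of 18 same-number pairs, 6 had a correlation of deviations from the group mean over 0.1 (range -0.404 to 0.451). No other count of called genes moved by over 1.5 times under the block.

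Counts over all genes also moved by over 1.5 times. DESeq2 gave 1468 lower in NICD_TCFKO against NICD_TCFWT (825), 1998 lower in NICD_TCFKO against NOTCHWT_TCFKO (1292), 1160 higher and 865 lower in NICD_TCFKO against NOTCHWT_TCFWT (642 and 368) and 918 higher and 737 lower in NOTCHWT_TCFKO against NICD_TCFWT libraries (214 and 246). Fitting only the groups compared gave 724 higher and 514 lower in NICD_TCFKO against NOTCHWT_TCFKO (1650 and 1292) and 360 higher and 178 lower in NICD_TCFKO against NOTCHWT_TCFWT libraries. The sex covariate gave 606 lower in the last comparison and 422 higher and 380 lower in NOTCHWT_TCFKO against NICD_TCFWT libraries. Without NOTCHWT_TCFKO 3 that comparison had 1097 higher and 968 lower, and with any one other library of its 2 groups left out 65 to 103 and 96 to 138. Among the other omissions of 1 library, those that moved a count this far gave 1073 to 1103 higher and 873 to 1005 lower in NICD_TCFWT against NOTCHWT_TCFWT (1701 and 1562), 564 to 730 and 332 to 412 in NICD_TCFKO against NICD_TCFWT (1161 and 825), 1118 and 1008 to 1083 in NOTCHWT_TCFKO against NOTCHWT_TCFWT (1738 and 1675), 861 to 1095 and 649 to 786 in NICD_TCFKO against NOTCHWT_TCFKO (1650 and 1292), and 251 to 303 and 117 to 165 in NICD_TCFKO against NOTCHWT_TCFWT libraries (642 and 368).

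The sign changes were as follows. Bcl2l11 in NICD_TCFKO against NOTCHWT_TCFKO libraries was 0.0086 with limma-voom and -0.16 to 0.14 with a library left out. Pmaip1 in NICD_TCFKO against NOTCHWT_TCFWT libraries was 0.04 with the sex covariate and -0.72 to 0.13 with a library left out. Mcl1 in NOTCHWT_TCFKO against NICD_TCFWT libraries was -0.0086 with the sheet covariate and -0.07 to 0.23 with a library left out. With a library left out, Mcl1 was -0.07 to 0.2 in NICD_TCFWT and -0.04 to 0.27 in NOTCHWT_TCFKO against NOTCHWT_TCFWT libraries. In NICD_TCFKO against NICD_TCFWT libraries Bak1 was -0.0076 to 0.15 and Bid -0.19 to 0.05. Bbc3 was -0.08 to 0.39 in NOTCHWT_TCFKO against NOTCHWT_TCFWT, -0.46 to 0.04 in NICD_TCFKO against NOTCHWT_TCFKO and -0.33 to 0.18 in NICD_TCFKO against NOTCHWT_TCFWT libraries, where Bax was -0.14 to 0.0062.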
